A study of Ovis aries with 6 samples.

Results

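The 7 classical and atypical cadherin genes CDH1, CDH2, CDH5, CDH10, CDH11, CDH13 and CDH19 were read across the cell types of the Hu sheep ovary. They were proposed for their pattern over cell types, with earlier results of these data known. All 7 are listed among the 30574 genes of the deposited count matrices, where 62 genes carry a symbol of the cadherin superfamily. One ovary of each of 6 ewes gave 1 library of droplet-based single-cell RNA sequencing (10x Genomics 3′ chemistry, version 3), in which RNA molecules are counted by their unique molecular identifiers (UMI) and assigned to a cell by the barcode of the droplet. The HLS group held 3 ewes with a litter size of at least 3, and the LLS group held 3 ewes with a litter size below 2. All ewes were Hu sheep in oestrus, 1 whole ovary of each was digested with collagenase and trypsin, and each ewe is 1 replicate. Of 52290 deposited barcodes 36457 cells were retained, and 30565 of them fell in the 7 types in which the cadherins are described. These were 14379 endothelial-like, 5470 stromal-like (with theca-like cells), 4197 ACTA2-high, 3460 granulosa-like, 2586 perivascular-like, 337 epithelial-like and 136 Schwann-like cells. A further 2709 immune-like cells served to show how many stray UMI of each gene were found in cells of another kind.

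Cadherins are membrane proteins that bind cadherins of the neighbouring cell through their extracellular repeats in the presence of calcium. Inside the cell most of them hold catenins, which link the junction to actin. Cells that carry the same cadherin tend to adhere to each other, and the type of cadherin changes with the tissue. E-cadherin (CDH1) is known from epithelia, N-cadherin (CDH2) from nerve, muscle and granulosa cells, VE-cadherin (CDH5) from vessel endothelium, and cadherin 11 (CDH11) from mesenchymal cells. T-cadherin (CDH13) has no transmembrane part and is held by a lipid anchor, and it binds adiponectin and low-density lipoprotein. CDH10 and CDH19 belong to the atypical (type II) cadherins and are known from brain vessels and neurons and from Schwann cell precursors.

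The level of a gene is given as its UMI per 10000 UMI of all genes, after the cells of one type were summed in a ewe, for ewes with at least 10 cells of the type. Levels were compared between types for one gene at a time, never between genes. The types came from clusters of the same cells, so the order of types is a description without a test. Cadherin superfamily genes took no part in forming or naming the clusters. Markers were highest in their own type for 12 of 12 endothelial, 11 of 11 granulosa, 10 of 10 epithelial, 8 of 8 Schwann, 11 of 11 immune and 7 of 9 perivascular genes. Only 1 of 8 stromal markers (DPT) was highest in the stromal-like cells, while the other 7 were highest in a cluster of 4197 cells led by ACTA2, TAGLN and CNN1. This cluster scored best as stromal (1.62) and next as perivascular (0.936). It is kept apart as ACTA2-high cells because its 10 leading genes held the perivascular markers ACTA2 and TAGLN and no stromal marker. Some clusters came mostly from a few ewes. HLS replicate 1 gave 1570 of the 1675 cells of endothelial-like cluster 5, and HLS replicate 2 and LLS replicate 1 together gave nearly all of the 3993 cells of endothelial-like cluster 2 (1744 and 2222 cells). Epithelial-like cells reached 10 in 4 ewes, and 223 of 337 came from LLS replicate 2. The libraries shared 140 of 36317 distinct barcodes. The total of UMI per library ranged from 43329214 to 75549906, and the median per retained cell from 5182 to 9648.5.

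**Figure D1:**
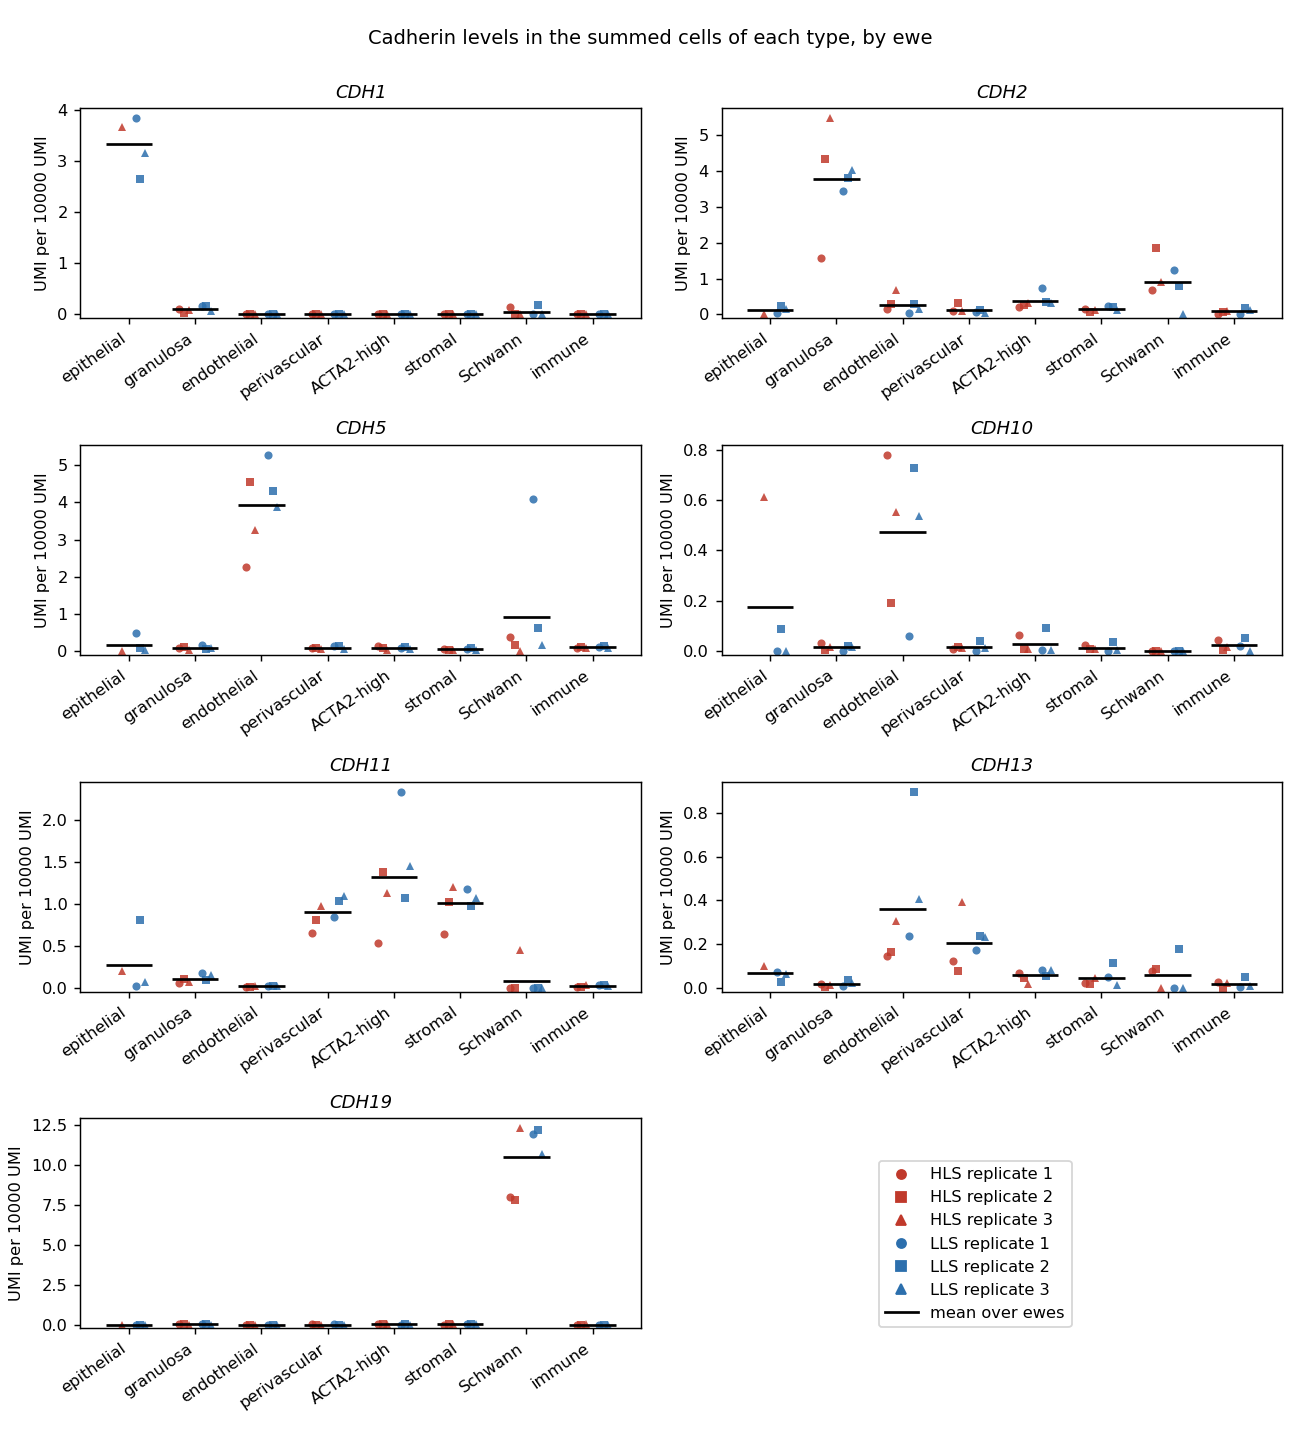
Level of each cadherin (UMI per 10000 UMI, linear axes that differ between panels) in the summed cells of 8 types, with 1 point per ewe coloured by group and a bar for the mean over ewes. CDH1 stands out in epithelial-like cells (mean 3.34), CDH2 in granulosa-like (3.77), CDH5 in endothelial-like (3.93) and CDH19 in Schwann-like cells (10.5), while CDH11 is spread over ACTA2-high, stromal-like and perivascular-like cells.

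CDH1, the E-cadherin of epithelial junctions, was found at a high level in epithelial-like cells only among the 8 types. Its level there was 3.67 in HLS replicate 3 and 3.85, 2.66 and 3.16 in LLS replicates 1, 2 and 3, a mean of 3.34 ± 0.535 (SD, n = 4). Each of the 4 values was far above every value of any other type. With each cell named by its own marker score in place of its cluster, the level was 1.08 in epithelial-like and 0.043 in granulosa-like cells. The next type was the granulosa-like cells with 0.102 ± 0.0543 (n = 6), so that the mean was 32.7 times lower than in epithelial-like cells, with 4 of 4 ewes in this order. Schwann-like cells followed with 4 UMI in all. The means of immune-like, endothelial-like, stromal-like and ACTA2-high cells were between 0.00124 and 0.00645, with ranges that overlapped from each type to the next. In perivascular-like cells no UMI of CDH1 was counted, which allows a pooled level of up to 0.0023 (3 UMI).

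The epithelial-like cells formed 2 clusters, and CDH1 was present in both. In cluster 22, led by OVGP1, WFDC2, KRT19 and KRT8, the level was 3.75 ± 0.638 (n = 4 ewes). In cluster 28, led by the ciliary genes CCDC39, DNAH5 and RSPH1, it was 1.88 and 2.29 in the ewes with enough cells (LLS replicates 2 and 3). After each cell was thinned to 2000 UMI, 39.7% of epithelial-like cells had a UMI of CDH1 (exact 95% binomial interval 34.2% to 45.3%), against 0.0713% of endothelial-like cells, which should lack it, at median depths of 7245 and 8703 UMI. Without thinning these shares were 69.7% and 0.167%. All intervals and limits given here cover counting error only.

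The low level of CDH1 in granulosa-like cells came from 1 of their 4 clusters. Cluster 17, led by GCG, SERPINE2, MMP9 and HTRA3 and with the highest score for mural-type granulosa genes, held 274 of the 289 UMI. Its level ranged from 0.149 to 0.455 over the 6 ewes, with a mean of 0.267 ± 0.111. In cluster 7, led by IGFBP2, FST and INHA, the level was 0.00631 ± 0.00821, and in cluster 21, with AMH, INHA and the cell cycle genes UBE2C and TOP2A among its leading genes, no UMI was counted. Cluster 17 lay above each of the other granulosa-like clusters in 6 of 6 ewes. The summed level of 10 epithelial markers in cluster 17 was 2.37 to 7.0 over ewes, with 5 to 9 of the 10 detected and LRRN4 at 0 in all 6 ewes. Their part in the CDH1 level was not tested.

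CDH2, the N-cadherin that joins granulosa cells to each other, was highest in granulosa-like cells. Its level was 1.56, 4.34 and 5.47 in HLS replicates 1, 2 and 3 and 3.45, 3.80 and 4.03 in LLS replicates 1, 2 and 3 (3.77 ± 1.28, n = 6). HLS replicate 1 was the lowest and the other 5 ewes were all above 3, with a mean of 4.21 without HLS replicate 1. Schwann-like cells came next with 0.915 ± 0.614, lower than granulosa-like cells of the same ewe in 6 of 6 ewes and 4.12 times lower in the mean. The ranges of the 2 types overlapped, since HLS replicate 2 had 1.85 in Schwann-like cells.

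Below these, CDH2 fell over ACTA2-high (0.362 ± 0.187), endothelial-like (0.262 ± 0.226), stromal-like (0.148 ± 0.0634), perivascular-like (0.122 ± 0.0960), epithelial-like (0.112 ± 0.109, n = 4) and immune-like cells (0.0905 ± 0.0690). Each of these ranges overlapped the next. At 2000 UMI per cell 42.6% of granulosa-like cells had a UMI of CDH2 (40.8% to 44.4%), against 1.58% of immune-like cells (1.10% to 2.21%), with median depths of 6566.5 and 3106 UMI. The unthinned shares were 60.9% and 2.81%. In ACTA2-high cells the thinned share was 5.17% (4.47% to 5.95%) and in Schwann-like cells 14.0% (7.66% to 22.7%), both above that of immune-like cells.

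Among the granulosa-like clusters CDH2 was 4.55 ± 1.57 in cluster 7, 4.32 ± 2.17 in cluster 21, 3.28 ± 0.877 in cluster 17 and 1.15 ± 0.838 in cluster 15 (n = 6 ewes each). CDH2 was itself among the 10 leading genes of cluster 7. Cluster 15 was the lowest in 6 of 6 ewes. It is the shallowest of the 4, with a median of 2298 UMI per cell, and the summed level of 8 stromal markers there was 23.1 to 30.7, against 6.31 to 14.1 in all granulosa-like cells. Whether those cells take part in the lower CDH2 was not tested. HLS replicate 1 was lowest in every granulosa-like cluster, with 0.219 in cluster 21, where it had 16 cells.

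CDH2 in endothelial-like cells differed between clusters and ewes. In cluster 0, led by SELP and CXCL9, HLS replicates 2 and 3 had 0.762 and 0.718, whereas the other 4 ewes had 0.156 to 0.348. In cluster 20, led by ADAMTS5, SULF1 and APLN, the same 2 ewes had 1.81 and 1.21, and the 3 LLS ewes had 0.207 to 0.417. HLS replicates 2 and 3 had 43 and 35 cells there, and HLS replicate 1 was left out with 5 cells. No test between HLS and LLS was run within clusters, and over all endothelial-like cells the 2 groups overlapped. The 11 granulosa markers summed to 0.371 to 0.606 in cluster 0 and to 0.136 to 0.272 in cluster 20. HLS replicate 3 had the lowest sum in cluster 20, where AMH, FSHR, INHA and 4 others were at 0.

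CDH5, the VE-cadherin of the endothelial adherens junction, was highest in endothelial-like cells. Its level was 2.26, 4.56 and 3.26 in HLS replicates 1, 2 and 3 and 5.28, 4.32 and 3.88 in LLS replicates 1, 2 and 3 (3.93 ± 1.06, n = 6). HLS replicate 1 was again the lowest, and the groups overlapped. After thinning, 52.8% of endothelial-like cells had a UMI of CDH5 (51.9% to 53.6%), against 2.47% of immune-like cells (1.86% to 3.22%), with median depths of 8703 and 3106 UMI. Unthinned, 86.5% and 4.39% had one. The means of epithelial-like, immune-like, granulosa-like, perivascular-like, ACTA2-high and stromal-like cells were between 0.0445 and 0.154, with overlapping ranges, and their thinned shares of 1.02% to 2.54% did not exceed the interval of immune-like cells.

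Schwann-like cells were second for CDH5 with a mean of 0.909 ± 1.58, which rested on 1 ewe. LLS replicate 1 had 4.10 from 15 cells, and the other 5 ewes had 0 to 0.623. In the Schwann-like cells of LLS replicate 1 the 12 endothelial markers summed to 17.5, with 11 of 12 detected and MMRN1 at 0, while they summed to 1.67 to 4.36 in the other ewes. In endothelial-like cells this sum was 37.7 to 54.5. The part of endothelial RNA in this value was not tested.

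Every endothelial-like cluster carried CDH5. Cluster 10, led by CXCL12, GJA4 and GJA5, was the highest with 5.79 ± 1.25 and lay above each other cluster in every ewe that had both. Cluster 2, led by OIT3, ESM1 and COL15A1, had 4.77 and 5.35 in the 2 ewes that formed it. Clusters 18 (4.29 ± 0.874), 20 (3.86 ± 0.629), 16 (3.66 ± 0.949) and 0 (3.35 ± 0.608) followed. Cluster 5, led by PPP1R1B and CA4 and mostly of HLS replicate 1, was the lowest with 1.49 to 2.52 in 4 ewes. The low CDH5 of HLS replicate 1 was seen in other clusters too, since it had the lowest value of all ewes in clusters 0, 10, 16 and 18.

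CDH10, a type II cadherin known from brain vessels and neurons, was low and was highest in endothelial-like cells. The level was 0.780, 0.192 and 0.553 in HLS replicates 1, 2 and 3 and 0.0591, 0.727 and 0.538 in LLS replicates 1, 2 and 3 (0.475 ± 0.290, n = 6). HLS replicate 2 and LLS replicate 1 were the low ewes, 1 in each group. Epithelial-like cells had 0.175 ± 0.295 (n = 4), from 0.612 in HLS replicate 3 (17 cells) down to 0 in LLS replicates 1 and 3. All other types had means of at most 0.0301, and Schwann-like cells had no UMI, which allows up to 0.0608.

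CDH10 differed between the endothelial-like clusters. The level was 0.766 ± 0.221 in cluster 0 (0.431 to 1.05, n = 6 ewes) and 0.627 ± 0.175 in cluster 5 (n = 4). It was 0.163 ± 0.137 in cluster 10, 0.179 ± 0.135 in cluster 18, 0.222 ± 0.0929 in cluster 20 and 0.0216 ± 0.0164 in cluster 16, which has the lymphatic markers. In cluster 2 it was 0.046 and 0.0205, and this cluster holds most endothelial-like cells of HLS replicate 2 and LLS replicate 1. Cluster 0 was above clusters 10, 16 and 18 in 6 of 6 ewes and above cluster 20 in 5 of 5. Of all cells 32.7% in cluster 0 and 53.0% in cluster 5 had a UMI, against 3.36% in cluster 2, at median depths of 5901, 9785 and 11400 UMI. For endothelial-like cells as a whole the thinned share was 7.30% (6.88% to 7.75%), against 0.419% of immune-like cells (0.192% to 0.795%), and the unthinned shares were 21.6% and 0.997%.

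**Figure D2:**
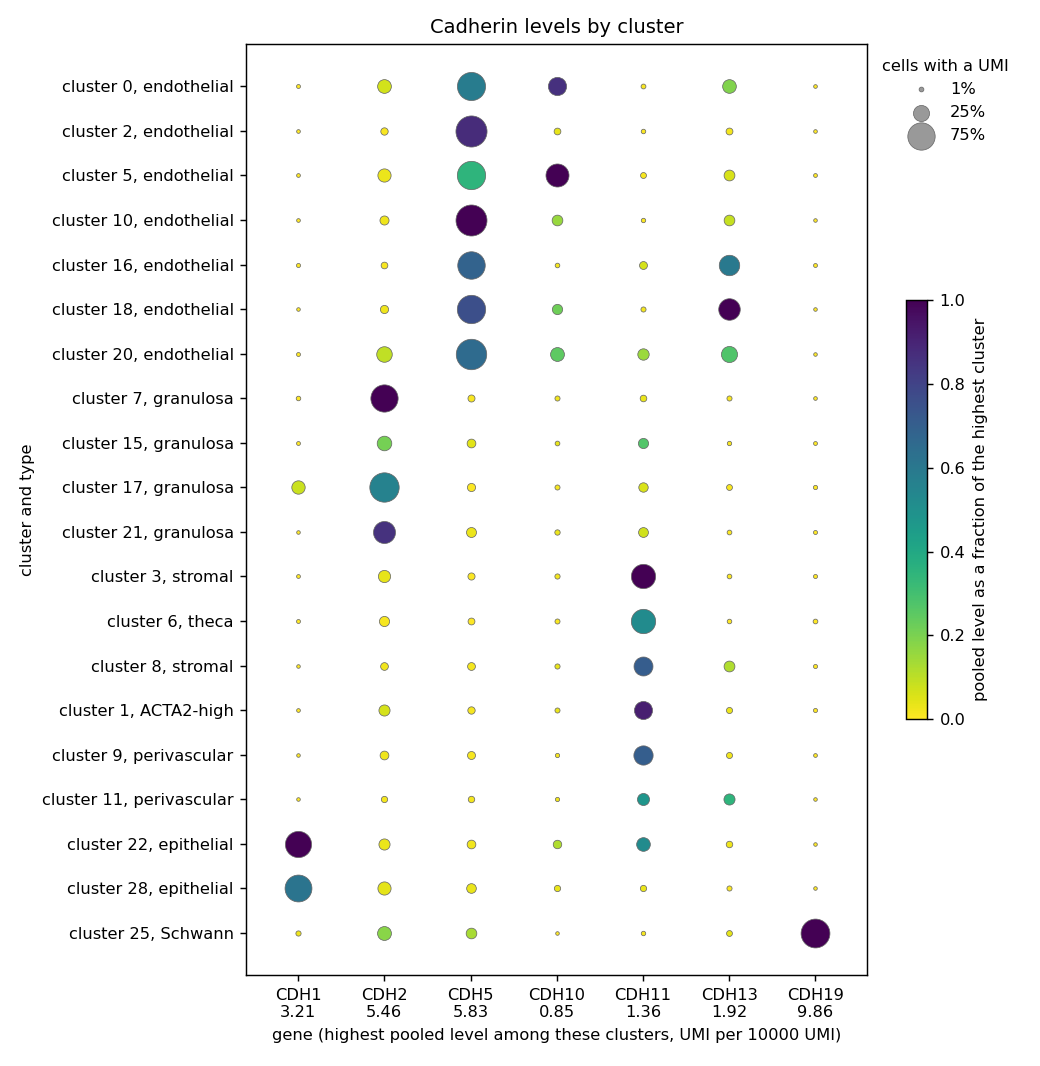
Pooled level of each cadherin in 20 clusters, as a fraction of its highest cluster (colour; the number under each gene is that highest level in UMI per 10000 UMI), with the share of unthinned cells that had a UMI as the dot size. CDH5 is present in all 7 endothelial-like clusters, CDH10 mainly in clusters 0 and 5, and CDH13 mainly in clusters 18, 16, 20 and 11.

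CDH13, the lipid-anchored T-cadherin of vessel walls, was low in the sums of all types but reached a higher level in some clusters. In endothelial-like cells the level was 0.147, 0.165 and 0.307 in HLS replicates 1, 2 and 3 and 0.236, 0.898 and 0.406 in LLS replicates 1, 2 and 3 (0.360 ± 0.280, n = 6). LLS replicate 2 stood apart from the others, and without it the mean was 0.252. Perivascular-like cells had 0.206 ± 0.111, lower than endothelial-like cells in 5 of 6 ewes, with overlapping ranges. Epithelial-like (0.0669), ACTA2-high (0.0579), Schwann-like (0.0570), stromal-like (0.0436), immune-like (0.0187) and granulosa-like cells (0.0177) followed. The thinned share was 6.08% in endothelial-like (5.69% to 6.49%) and 4.24% in perivascular-like cells (3.41% to 5.19%), against 0.466% in immune-like cells (0.224% to 0.855%), and the unthinned shares were 15.3%, 6.30% and 0.960% at median depths of 8703, 3351.5 and 3106 UMI.

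Among endothelial-like clusters CDH13 was highest in cluster 18, led by GJA5, SEMA3G, BMX and ELN. It had 0.989, 1.76 and 2.21 in HLS replicates 1, 2 and 3 and 1.95, 4.84 and 1.58 in LLS replicates 1, 2 and 3. LLS replicate 2 was again the highest, and the other ewes of both groups overlapped. The lymphatic cluster 16, led by CCL21, MMRN1, RELN and PROX1, had 1.03 ± 0.282, lower than cluster 18 in 6 of 6 ewes. Cluster 20 had 0.470 ± 0.213, cluster 0 had 0.369 ± 0.240 and cluster 10, which shares GJA5 and CXCL12 with cluster 18 among its leading genes, had 0.165 ± 0.0947. In cluster 2 the level was 0.0133 and 0.0476. CDH10 and CDH13 thus differed within the endothelium, as cluster 16 had CDH13 with nearly no CDH10, while cluster 5 had CDH10 at 0.458 to 0.857 and CDH13 at 0.113 to 0.426.

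In the perivascular-like cells CDH13 lay in the smooth muscle cluster 11, led by PDE3A, MYH11 and PLN. The level was 0.715 ± 0.334 (0.279 to 1.07, n = 6), against 0.0411 ± 0.0314 in the pericyte cluster 9, led by RGS5, HIGD1B and KCNJ8, and it was higher in cluster 11 in 6 of 6 ewes. The 12 endothelial markers summed to 1.48 to 3.58 in cluster 11. Among stromal-like cells CDH13 was 0.206 ± 0.0884 in cluster 8, led by DPT, MFAP5 and PI16, and 0.0112 ± 0.0073 and 0.0091 ± 0.0103 in cluster 3 and theca-like cluster 6. Cluster 8 was the highest of the 3 in 6 of 6 ewes.

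**Figure D3:**
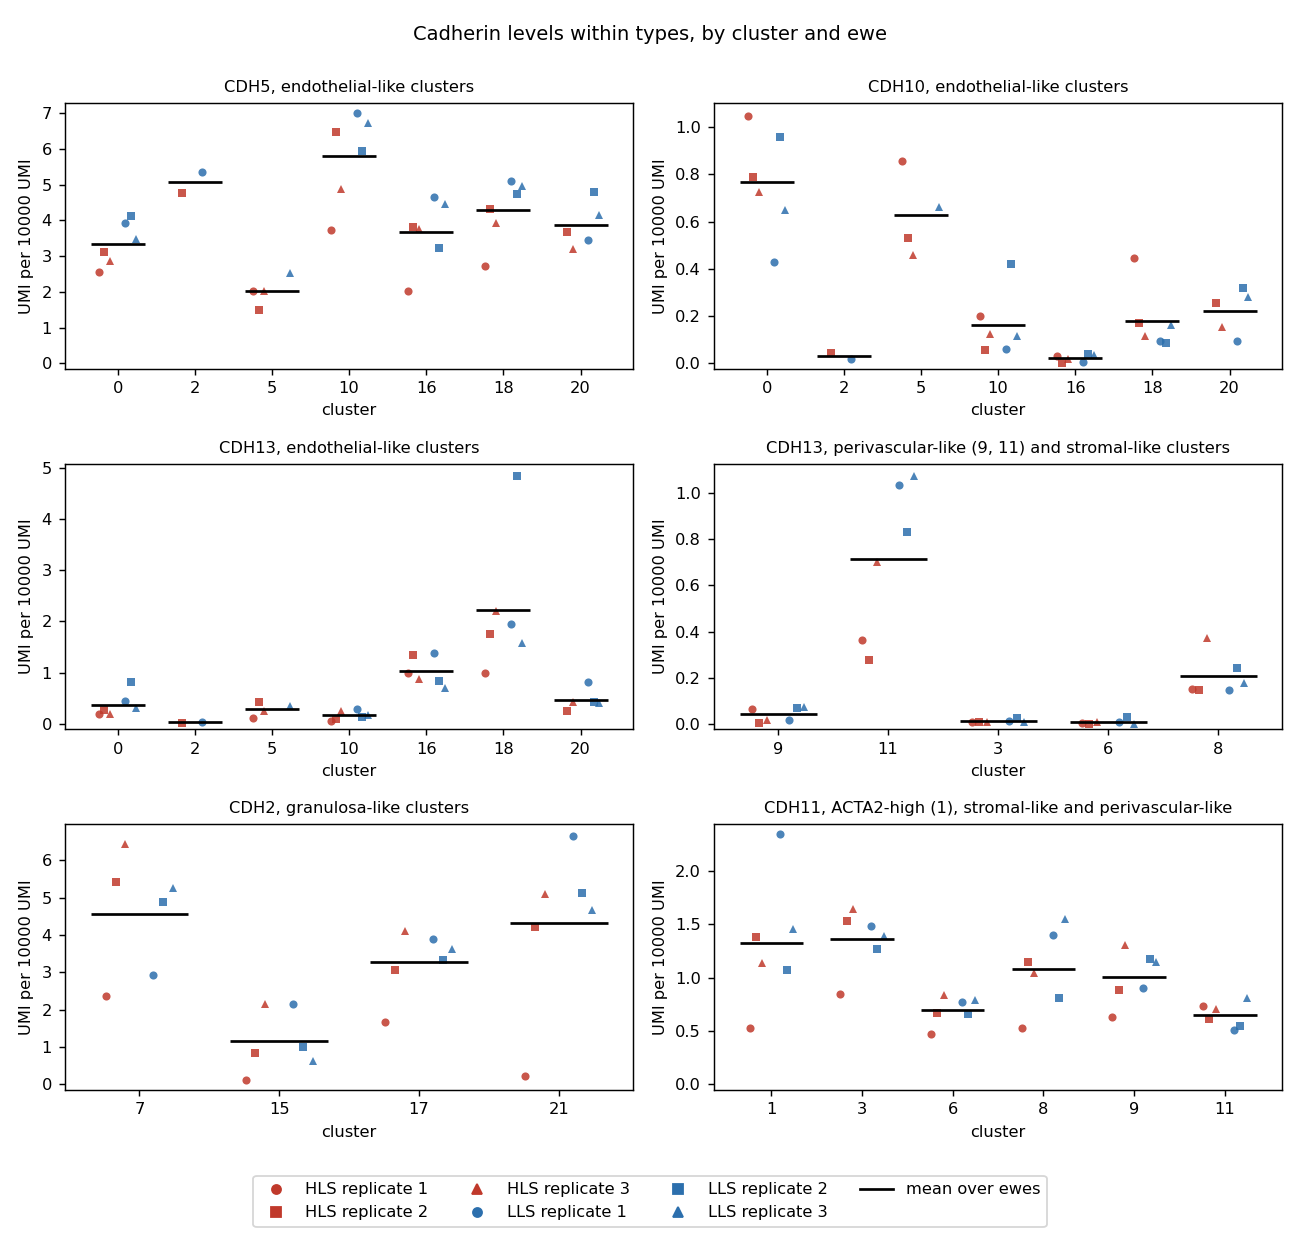
Level of CDH5, CDH10, CDH13, CDH2 and CDH11 (UMI per 10000 UMI) in the clusters of a type, with 1 point per ewe that had at least 10 cells of the cluster and a bar for the mean over those ewes. CDH13 is highest in cluster 18 among endothelial-like and in cluster 11 among perivascular-like clusters, and HLS replicate 1 is the lowest ewe for CDH2 in each granulosa-like cluster.

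CDH11, the cadherin of mesenchymal cells, was shared by 3 types. In ACTA2-high cells it was 0.533, 1.38 and 1.13 in HLS replicates 1, 2 and 3 and 2.34, 1.07 and 1.45 in LLS replicates 1, 2 and 3 (1.32 ± 0.597, n = 6). In stromal-like cells the HLS ewes had 0.640, 1.02 and 1.20, and the LLS ewes had 1.17, 0.979 and 1.08 (1.02 ± 0.203). In perivascular-like cells the values were 0.650, 0.813 and 0.975 for HLS and 0.841, 1.04 and 1.09 for LLS (0.902 ± 0.164). HLS replicate 1 had the lowest value in all 3 types. The 3 ranges overlapped, with ACTA2-high above stromal-like cells in 4 of 6 ewes and stromal-like above perivascular-like cells in 3 of 6, so that no order among them held over the ewes. When ACTA2-high cells were joined with stromal-like cells, an alternative chosen after the data were seen, the joined type had the highest mean with 1.15.

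The other types had less CDH11. Epithelial-like cells had 0.275 ± 0.362 (n = 4), with 0.806 in LLS replicate 2 and 0.0243 to 0.204 elsewhere. In cluster 22 of LLS replicate 2, where CDH11 was 1.01, the 8 stromal markers summed to 9.17 with all 8 detected, against 0.877 to 4.79 in the other ewes, and their part was not tested. Granulosa-like cells had 0.109 ± 0.0495, immune-like cells 0.0209 ± 0.0111 and endothelial-like cells 0.0205 ± 0.00545. The thinned share was 18.1% in stromal-like (17.1% to 19.2%), 18.4% in ACTA2-high (17.2% to 19.7%) and 15.4% in perivascular-like cells (13.9% to 17%), against 0.419% in immune-like cells at a median depth of 3106 UMI. Unthinned, these shares were 52.7%, 32.1%, 26.6% and 0.997%, at median depths of 8952, 3609, 3351.5 and 3106 UMI.

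Within the stromal-like cells CDH11 was 1.36 ± 0.283 in cluster 3, led by PTCH1, COL11A1 and TCF21, and 0.70 ± 0.130 in theca-like cluster 6, led by LHCGR, CYP17A1 and INSL3. Cluster 3 was above cluster 6 in 6 of 6 ewes. Cluster 8 had 1.08 ± 0.376, below cluster 3 in 5 of 6 ewes. Within the perivascular-like cells the pericyte cluster 9 (1.01 ± 0.247) was above the smooth muscle cluster 11 (0.651 ± 0.116) in 5 of 6 ewes, with HLS replicate 1 the exception. CDH11 and CDH13 therefore had opposite orders in the 2 perivascular-like clusters. Of the granulosa-like clusters, cluster 15 had the most CDH11 (0.382 ± 0.148), beside its stromal markers given above.

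CDH19, a type II cadherin of the Schwann cell lineage, was found in Schwann-like cells. Its level was 7.97, 7.83 and 12.3 in HLS replicates 1, 2 and 3 and 11.9, 12.2 and 10.7 in LLS replicates 1, 2 and 3 (10.5 ± 2.09, n = 6), from 10 to 39 cells per ewe. HLS replicate 3, with 10 cells, was the highest of the 6 ewes, while HLS replicates 1 and 2 were below all LLS ewes. The next type was the ACTA2-high cells with 0.00854 ± 0.00786, and the means of the other types were at most 0.00539. In epithelial-like cells no UMI was counted, which allows up to 0.0107. After thinning 74.2% of Schwann-like cells had a UMI (64.1% to 82.7%, 43 shallower cells left out) and 0 of 2146 immune-like cells had one, which allows a share of up to 0.140%. Unthinned, the shares were 83.8% and 0.0369% at median depths of 2696.5 and 3106 UMI. With cells named by their own score, the level in Schwann-like cells was 1.83.

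The genes whose level followed a cadherin most closely over the 46 sums of 1 type in 1 ewe were found by the Pearson correlation of log2(CPM + 1), with CPM the UMI of a gene scaled to equal totals, among 8512 genes with a symbol and a mean of at least 10 CPM. These sums share ewes and libraries and differ in depth, so the values are descriptions. KRT19, MUC16, SCN7A and SOX10 also served as markers to name the epithelial-like and Schwann-like clusters, and their likeness follows in part from that. For CDH1 they were KRT19 (r = 0.96), an epithelial keratin, CLDN3 (0.89), a tight junction claudin, and MUC16 (0.88), a mucin of surface epithelium. For CDH5 they were ABLIM3 (0.93), MYCT1 (0.92) and ADCY4 (0.91), and for CDH19 SCN7A, a sodium channel of glia, SOX10, the transcription factor of the glial lineage, and SLITRK6 (all 0.99). For CDH11 they were CRISPLD2 (0.92), SMO, the transducer of hedgehog signals (0.90), and CPE, a carboxypeptidase (0.90). CDH10 was followed by CA4, a membrane-bound carbonic anhydrase (0.84), ABCB1, a drug efflux pump (0.79), and PPP1R1B (0.77). For CDH13 they were FOXC1, a transcription factor of vessels (0.82), PHLDB2 (0.79) and TNS2 (0.79). CDH2 had the lowest values, with ADGRB3 (0.79), PPIH (0.76) and TRMT112 (0.73).

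In the annotation of the sheep assembly ARS-UI_Ramb_v3.0, CDH10 lies between CDH9 and CDH12, CDH19 beside CDH7, CDH11 beside CDH8, and CDH2 beside DSC3, a desmosomal cadherin. These neighbours are named for their position only. The highest mean level over types was 0.0171 for CDH9 and 0.107 for CDH12, both in granulosa-like cells, 0.144 for CDH7 in Schwann-like cells, 0.00726 for CDH8 in stromal-like cells and 0.00108 for DSC3 in ACTA2-high cells.

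Of 16 other classical and related cadherins, all of them listed in the counts, only CDH6 had a mean of at least 0.5 in any type, and it was highest in Schwann-like cells (1.88 ± 0.769, n = 6), 2.45 times the next type, the epithelial-like cells. The members were proposed for their pattern over types, so their contrast with these 16 follows in part from that choice. Of the 10 listed desmosomal cadherins and plaque genes only DSG2, a desmoglein, passed 0.5, and it was highest in epithelial-like cells like CDH1 (1.19 ± 0.338, n = 4), 53.1 times the next type. The catenins were spread over types. CTNNB1, the beta-catenin that binds the cadherin tail and named here for that role, was 5.01 ± 1.15 in endothelial-like and 4.31 in epithelial-like cells, and of the 7 genes of this group with a level of at least 0.5 only PKP4, a p120 relative, had at least 2 times the level of the next type (1.5 ± 0.247 in endothelial-like cells, 3.03 times). ARVCF, CTNNA3 and CTNNA2, all below 0.5, also had at least 2 times the next type, in Schwann-like (0.346), perivascular-like (0.161) and granulosa-like cells (0.248).

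Of 12 endothelial junction partners of CDH5, 10 had a level of at least 0.5 in some type, and 8 of these were highest in endothelial-like cells. KDR, CLDN5, TEK and PECAM1 are among the markers that named the endothelial-like clusters, so that their order is not independent of the naming. KDR, the VEGF receptor that forms a complex with VE-cadherin, had 7.15 ± 2.16, 10.7 times the next type, and RASIP1, a regulator of vessel tube formation, 1.52 ± 0.121, 10.5 times. CLDN5, a tight junction claudin, had 4.20 ± 1.39 (9.53 times), TEK, the angiopoietin receptor, 1.05 ± 0.281 (8.78 times), and PTPRB, the phosphatase VE-PTP, 5.36 ± 1.75 (5.34 times). JAM2, a junctional adhesion molecule, had 0.984 ± 0.297 (3.20 times). Among nectins and the related CADM genes, CADM3, CADM4 and CADM1 were highest in Schwann-like cells with 1.22 ± 0.622, 1.83 ± 1.31 and 9.46 ± 1.29. Of 7 repressors of CDH1 transcription, TCF4 was highest in endothelial-like cells (9.70 ± 1.48, 2.20 times) and TWIST1 in granulosa-like cells (1.72 ± 1.18, 2.03 times). None of 8 genes of cadherin cleavage and of 3 genes of adiponectin and its receptors reached 2 times the next type at a level of 0.5. JUP and DSP were not found under these symbols.

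The question whether a cadherin differed between ewes of high and low litter size was tested within each type on UMI summed per ewe, with the quasi-likelihood test of edgeR and Benjamini-Hochberg adjustment over all genes tested. No member passed an adjusted p of 0.05 in any of 7 types. The types were endothelial-like (15107 genes tested), granulosa-like (12208), stromal-like (14030), ACTA2-high (12066), perivascular-like (10825), Schwann-like (1624) and immune-like cells (10116). No other gene passed either, so that 0.0% of genes were called in each type. Epithelial-like cells were not tested, because 1 HLS ewe alone had enough cells. Of 49 pairs of a member and a type 25 passed the filter on low counts and 4 of them had an unadjusted p under 0.05. The adjusted p of all 25 was at least 0.775. Over all genes, and in the order given, 1.34%, 4.32%, 5.2%, 5.33%, 3.07%, 4.13% and 4.96% had an unadjusted p under 0.05, from 67 to 730 genes per type. DESeq2 called 8, 1, 3, 8, 2, 0 and 25 genes in the 7 types in the order given, and none of them was a member.

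The 4 pairs were in 4 types. CDH2 in perivascular-like cells was higher in HLS, and the others were lower. CDH13 in endothelial-like cells had a mean of 0.206 in HLS and 0.513 in LLS ewes, a log2 fold change of -1.24 (SE 0.47, unadjusted p = 0.0320, adjusted p = 1.0, edgeR), where 202 genes, 1.34% of those tested, had an unadjusted p under 0.05. The groups overlapped, and without LLS replicate 2 the log2 fold change was -0.60. CDH11 in granulosa-like cells had 0.0741 in HLS and 0.144 in LLS ewes (log2 fold change -0.74, SE 0.32, unadjusted p = 0.0493, adjusted p = 0.973, edgeR), beside 527 genes or 4.32% with such a p. CDH2 in ACTA2-high cells had 0.263 and 0.462 (log2 fold change -0.80, SE 0.31, unadjusted p = 0.0272, adjusted p = 0.905, edgeR), beside 643 genes or 5.33%, and its difference was -0.23 without LLS replicate 1, the highest ewe with 0.730. CDH2 in perivascular-like cells had 0.167 and 0.0778 (log2 fold change 1.29, SE 0.54, unadjusted p = 0.0388, adjusted p = 0.990, edgeR), beside 332 genes or 3.07%, and 0.50 without HLS replicate 2, the highest ewe with 0.309. Its mean over all ewes there, 0.122, was near the 0.0905 of immune-like cells, with thinned shares of 2.12% and 1.58% and overlapping intervals.

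Apart from these pairs, the members differed by less than 2 standard errors in the types where they were highest. CDH2 in granulosa-like cells had 3.79 in HLS and 3.76 in LLS ewes (log2 fold change 0.16, SE 0.35). CDH5 in endothelial-like cells had 3.36 and 4.49 (-0.36, SE 0.25). CDH10 there had 0.508 and 0.442 (0.39, SE 0.85), and CDH2 there had 0.369 and 0.154 (1.32, SE 0.77). CDH11 had a log2 fold change of -0.66 (SE 0.33) in ACTA2-high, of -0.05 (SE 0.20) in stromal-like and of -0.20 (SE 0.19) in perivascular-like cells. CDH19 in Schwann-like cells had 9.37 in HLS and 11.6 in LLS ewes (-0.31, SE 0.30). Overlap was read on sums scaled by TMM factors of all genes, computed before the filter on low counts and so not the scaling of the test. By these sums the HLS and LLS ewes did not overlap for 2 of the 25 pairs. These were CDH11 in endothelial-like cells, where 5.22% of all genes did not overlap, and CDH19 in Schwann-like cells, where 7.57% did not. Both were lower in HLS by these scaled sums. No member was without overlap in the other types. There the share of all genes was 10.7% for immune-like, 10.4% for granulosa-like, 8.51% for perivascular-like, 10.9% for stromal-like and 10.6% for ACTA2-high cells. By the levels, which lack this scaling, the groups overlapped for both pairs. CDH11 in endothelial-like cells was 0.0218 in HLS replicate 3, above LLS replicate 1 with 0.0210. Its mean over ewes there, 0.0205, was near the 0.0209 of immune-like cells. CDH19 in Schwann-like cells was 12.3 in HLS replicate 3, above LLS replicate 2 with 12.2, the highest LLS ewe.

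**Figure D4:**
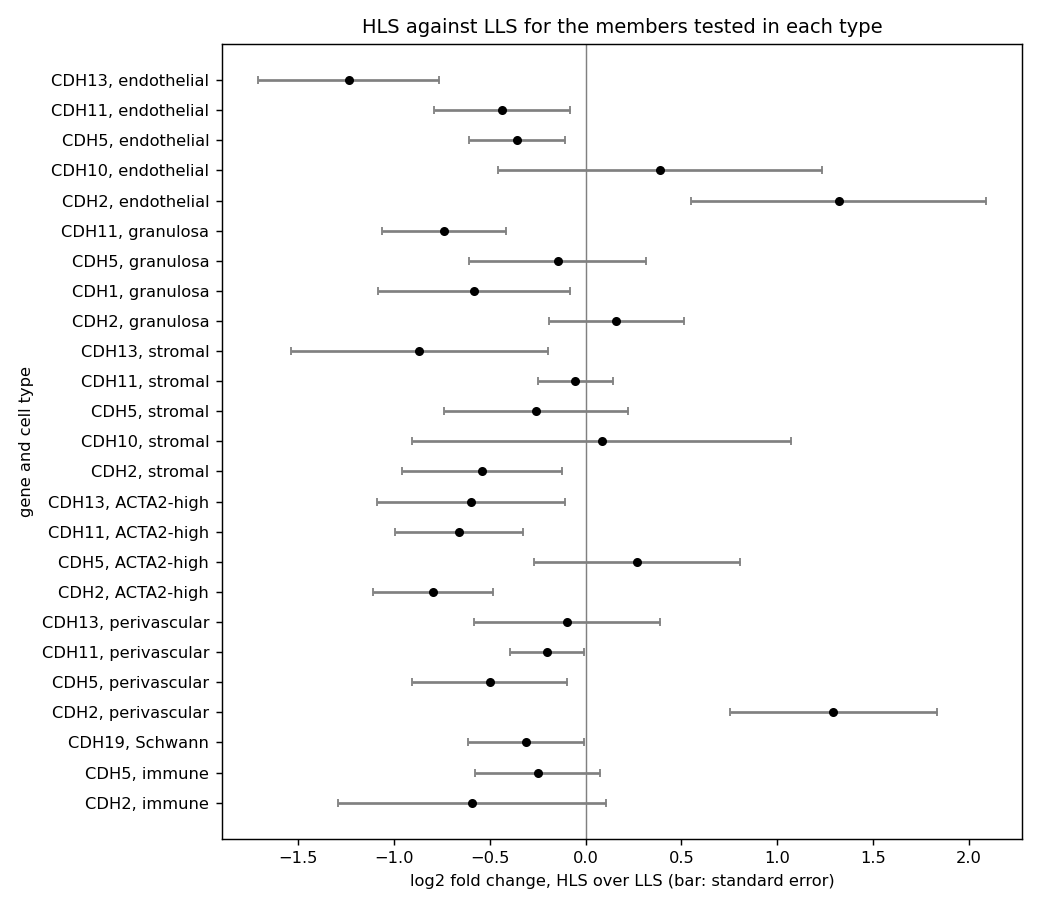
Log2 fold change of HLS over LLS from edgeR for the 25 pairs of member and cell type that passed the filter on low counts, with bars for the standard error. Bars that clear 0 are seen for several pairs, but the lowest adjusted p was 0.775.

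The related gene lists gave no call between HLS and LLS in any of the 7 types either. Over all lists, members included, 10 of 301 pairs of gene and type (3.32%) had an unadjusted p under 0.05, near the 3.95% of the pairs of all genes. For the endothelial junction partners of CDH5 in endothelial-like cells, all 12 were tested and 9 had a negative log2 fold change, with a median of -0.16 against 0.01 for all genes tested. The same list had medians of 0.18 in ACTA2-high (4 of 11 negative) and 0.05 in granulosa-like cells (5 of 11 negative). Its medians were -0.36 in stromal-like (7 of 11 negative), -0.21 in immune-like (9 of 10) and -0.03 in perivascular-like cells (6 of 11). Negative medians were thus not limited to endothelial-like cells. Of these genes KDR had 7.15 in endothelial-like and 0.131 in stromal-like cells, and PTPRB had 5.36 and 0.0927, while JAM3 had 0.0088 and 0.529. The medians of the other types rest in part on such low levels and cannot show whether the shift was shared. For the 5 members tested in endothelial-like cells the median was -0.36. Their medians were also negative in granulosa-like (-0.37), stromal-like (-0.26), ACTA2-high (-0.63), perivascular-like (-0.15) and immune-like cells (-0.42). In Schwann-like cells the 1 member tested had -0.31. The medians of all genes were between -0.01 and 0.01. These types share the same 6 ewes, and the common sign was not tested.

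Whether the difference between HLS and LLS was unlike in 2 types was tested as an interaction in edgeR, with the ewe as a block, for the pairs among endothelial-like, granulosa-like, stromal-like and perivascular-like cells. No gene was called in any of the 6 pairs of types (0.0%). Of 31 tests of a member in a pair of types, 2 had an unadjusted p under 0.05. The log2 effect on CDH2 was -1.95 (SE 0.82) in stromal-like minus perivascular-like cells (unadjusted p = 0.0404, adjusted p = 0.991, edgeR), where 3.79% of genes had such a p. As given above, CDH2 in perivascular-like cells was near its level in immune-like cells. The effect on CDH11 was -0.68 (SE 0.28) in granulosa-like minus stromal-like cells (unadjusted p = 0.0354, adjusted p = 1.0, edgeR), where 2.89% had one. The effect on CDH2 was 2.11 (SE 1.06) in endothelial-like minus stromal-like cells, where 1.74% of genes had such a p, and 1.51 (SE 0.69) in endothelial-like minus granulosa-like cells, where 1.54% had one. The effect on CDH13 was -0.73 (SE 0.44) in endothelial-like minus perivascular-like cells, its 2 highest types (2.06% of genes). That on CDH11 was 0.14 (SE 0.22) in stromal-like minus perivascular-like cells. These 4 effects had unadjusted p of 0.0820, 0.0580, 0.130 and 0.544 from edgeR. ACTA2-high cells, where the mean of CDH11 was highest, were not part of the interaction tests.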

How the data were processed

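For each of 6 ewes Cell Ranger 5.0.0 with STAR was run by the authors, who deposited raw UMI counts of genes by barcode, not normalized; the genome build is not given in the sources used here. The study's limits were applied: at least 200 genes and 1000 UMI, a log10 genes to log10 UMI ratio of at least 0.7, and at most 10% mitochondrial and 5% haemoglobin UMI. This left 38464 of 52290 barcodes, and 2007 doublets were removed per ewe by the neighbours of simulated doublets (2 per cell), not by the study's caller. Log-normalized counts of 2000 variable genes gave 30 principal components, a graph of 20 neighbours and 30 Leiden clusters (resolution 0.8, leidenalg 0.10.2, igraph 0.11.9). Clusters were named from marker genes with a score of at least 0.5, and the rebuilt names can differ from the study's. The members and gene lists were chosen with earlier results of these data known.

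UMI of the cells of a type were summed per ewe. HLS was tested against LLS with edgeR 4.0.16 (TMM factors, filterByExpr, quasi-likelihood F test, R 4.3.3), without a term for the replicate number, and p values were adjusted by Benjamini-Hochberg with a threshold of 0.05. The test was tested on simulated data, and DESeq2 1.42.0 was an alternative. Of simulated 2-fold changes it recovered from 2.13% in endothelial-like to 31.6% in ACTA2-high cells. Of 4-fold changes it recovered from 58.7% in endothelial-like to 93.3% in Schwann-like cells. Most 2-fold changes would thus be missed, so the lack of a call does not show equal levels. The ewes are separate animals, while each gave 1 library. Named genes were all members, the 3 genes most like each member, and list genes with at least 0.5 UMI per 10000 UMI in their highest type and 2 times the next, at most 6 per list by that ratio. Python 3.11.15, numpy 2.4.6, scipy 1.17.1, pandas 2.3.3, scikit-learn 1.9.0 and matplotlib 3.10.9 were used. No sequence is shown, as no genome was used here.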

Additional observations from a re-analysis of the deposited data

Results flagged for a closer look

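Of 26 levels of a member in a type that rested on at least 100 UMI, 4 had 1 ewe far from the other 5, and chance alone marks about 1 in 20 such groups. CDH2 in ACTA2-high cells was 0.730 in LLS replicate 1, where the nearest ewe had 0.334. In perivascular-like cells CDH2 was 0.309 in HLS replicate 2, with the nearest ewe at 0.125. CDH13 was high in LLS replicate 2 both in endothelial-like cells (0.898, nearest 0.406) and in stromal-like cells (0.113, nearest 0.0491).

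Cadherins were also counted in the 1089 cells that no type could be given to and that no comparison used, all above the limit that a count of 0 would allow there. The pooled levels were 2.54 for CDH5, 0.393 for CDH10, 0.384 for CDH2, 0.301 for CDH11, 0.109 for CDH13, 0.0437 for CDH19 and 0.0262 for CDH1. These cells had a median of 1357 UMI.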

How the results depend on the processing

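The type with the highest mean was the same under all 17 settings compared for CDH1, CDH2, CDH5, CDH10, CDH13 and CDH19, and under 15 of 17 for CDH11, the exceptions being cells named by their own score and ACTA2-high cells joined with stromal-like cells. Naming each cell by its own score gave 1.08 for CDH1 in epithelial-like, 0.043 for CDH1 in granulosa-like and 1.83 for CDH19 in Schwann-like cells, and the mean over cells gave 12.7 for CDH19 in place of 10.5. Leaving out clusters with at least 95% of their cells from 2 ewes gave 0.510 for CDH13 in endothelial-like cells in place of 0.360. With 1 ewe left out at a time the levels ranged from 3.16 to 3.56 for CDH1 in epithelial-like, 3.43 to 4.21 for CDH2 in granulosa-like, 3.66 to 4.26 for CDH5, 0.414 to 0.558 for CDH10 and 0.252 to 0.402 for CDH13 in endothelial-like, 1.12 to 1.48 for CDH11 in ACTA2-high and 10.1 to 11 for CDH19 in Schwann-like cells. Shares of cells with a UMI moved with depth: unthinned and thinned to 1000 UMI they were 69.7% and 18.1% for CDH1, 60.9% and 24% for CDH2, 86.5% and 31.4% for CDH5, 21.6% and 4.02% for CDH10, 32.1% and 9.20% for CDH11, 15.3% and 3.00% for CDH13 and 83.8% and 63.2% for CDH19.

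Genes called between HLS and LLS were 0 in each type. DESeq2 called 8 genes each for endothelial-like and ACTA2-high, 3 for stromal-like, 25 for immune-like, 1 for granulosa-like and 2 for perivascular-like cells. Without a filter on low counts 174, 79, 17 and 5 were called in immune-like, ACTA2-high, perivascular-like and Schwann-like cells, and resolution 1.6 gave 1 in ACTA2-high cells. With 1 ewe left out the counts ranged from 0 to 2 in stromal-like and immune-like cells, from 0 to 1 in ACTA2-high and perivascular-like cells, and were 0 in the other 3. Of the 25 tested pairs 16 were followed over the alternatives. None of these 16 had an adjusted p under 0.294 in any alternative (CDH2 in ACTA2-high cells). The log2 fold change changed sign for 4 of the 16. With cells named by their own score it was -0.019 for CDH2 in granulosa-like cells. With 1 ewe left out it ranged from -0.15 to 0.50 for CDH2 in granulosa-like (below 0 without HLS replicate 3), from -0.26 to 0.92 for CDH10 in endothelial-like (below 0 without HLS replicate 1, and -0.13 without LLS replicate 1), from -0.18 to 0.078 for CDH11 in stromal-like (above 0 without HLS replicate 1, and 0.036 without LLS replicate 1) and from -0.92 to 0.33 for CDH13 in perivascular-like cells (above 0 without HLS replicate 2, and 0.094 without HLS replicate 1). The causes were not tested. The replicate numbers were not treated as pairs of ewes. Deviations of same-numbered ewes had correlations of -0.34 to 0.30. Ewes of unlike number were not compared, so these values cannot decide whether the numbers pair the ewes. A replicate block gave 3 calls in immune-like cells and 0 in the other types. At this depth 25 of 49 pairs of a member and a type passed the filter on low counts, and the others could not be tested.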

Other observations

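The 2 clusters with cycling as their best marker score were kept out of the types and carried different cadherins, while granulosa-like cluster 21 had cycling as its second-best score. Cluster 13, whose second-best marker score was endothelial, had CDH5 at 4.13 ± 0.963 (SD, n = 6 ewes) and CDH11 at 0.0121 ± 0.0126. Cluster 19, whose second-best score was stromal, had CDH11 at 1.62 ± 0.696 and CDH5 at 0.0309 ± 0.0226.

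CDH2 was also found in cluster 24, whose 152 cells were led by PLAC8, LY6E and LAMP3 and came mostly from LLS replicate 2 (129 cells). There its level was 2.67 in LLS replicate 2 and 0.974 in HLS replicate 3, which had 13 cells, and 70.4% of all cells of the cluster had a UMI. The 11 granulosa markers summed to 0.230 and 0.0974 in these ewes, with FSHR, INHBB, IHH and CYP19 at 0 in both and AMH the 1 marker found in HLS replicate 3. In cluster 27, led by OXT and formed by 102 cells of LLS replicate 3, CDH2 was at 0.655.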
